A study of Homo sapiens with 27 samples.

Results

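The proteasome subunit genes were taken as the gene symbols formed by PSMA, PSMB, PSMC or PSMD and a number, leaving out PSMB8 and PSMB9, the interferon-induced chains of the immunoproteasome. The rule gave 37 of the 26255 symbols listed, of which 17 belong to the 20S core (8 PSMA and 9 PSMB) and 20 to the 19S cap (6 PSMC and 14 PSMD). The 26S proteasome degrades proteins tagged with ubiquitin. Its core is a barrel in which PSMA chains form the gated outer rings and PSMB chains the inner rings, with the proteolytic sites on PSMB5, PSMB6 and PSMB7. In the cap, the PSMC ATPases unfold the substrate and thread it into the core, while PSMD proteins form the scaffold, bind ubiquitin chains and, in the case of PSMD14, cut them off. The transcription factor NRF1, encoded by NFE2L1, raises the subunit genes together when proteasome activity is short. Not every gene under the rule encodes a part of the mature constitutive particle: PSMA8 is a testis chain, PSMB11 a chain of the thymus, PSMB10 another inducible chain, and PSMD5, PSMD9 and PSMD10 are chaperones that help assemble the cap base.

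RNA came from HCT116, SW480 and DLD-1, lines of human colorectal carcinoma cells, each as untreated WT cells, as cells made resistant to fluorouracil (5-FU res) and as cells made resistant to oxaliplatin (OX res), with 3 libraries in each of the 9 groups and 27 in all. Resistance was raised in culture for about 6 months, with fluorouracil going from 5 to 70 µM and oxaliplatin from 5 to 35 µM. The labels do not say whether a resistant line is 1 clone or a pool, whether drug was present at harvest, or whether the 3 libraries of a group were separate cultures, so the spread behind each p-value is that among libraries and may be technical only. The DLD-1 libraries carry a separate series of library names and the study's methods describe HCT116 and SW480 alone, so DLD-1 as a line and DLD-1 as a set of libraries cannot be told apart.

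Levels are in TPM, the deposited FPKM divided by the sum of its library and scaled to a common total that is the same for every library, and differences are log2 fold changes on the log2(TPM + 1) scale. A gene was called when its adjusted p in limma was under 0.05. Relative depth, estimated from the steps between low FPKM values, was 0.721 to 1.13 times that of HCT116 WT replicate 1. The reads themselves are not known, so the estimate could not be checked. Of 8 markers of colorectal epithelium, 6 to 7 were at 1 TPM or more in every group, with a summed level of 5703 to 20961 TPM, against at most 17.7 TPM for 5 fibroblast, 12.4 TPM for 5 leukocyte and 2.09 TPM for 4 endothelial markers. Ribosomal protein genes took from 11.8% to 25.7% of the TPM of a library, and the share differed between groups of a line. In bulk RNA, fewer cells that express a gene and less of its RNA per cell cannot be told apart. On the TPM scale the median of all genes tested also shifted. It moved by 0.18 and 0.60 (log2) in HCT116 5-FU res and OX res cells. In SW480 it moved by 0.44 and 0.36, and in DLD-1 by -0.027 and 0.13. With FPKM as deposited it moved by -0.0026 and 0.090 in HCT116, 0.044 and -0.0065 in SW480, and -0.0052 and 0.00084 in DLD-1. The shift thus depends on the scaling, and the subunit changes are also given against the median on the TPM scale.

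PSMA8 was listed at 0 in all 27 libraries, and PSMB11 reached at most 0.092 TPM. The other 35 genes, 15 of the core and 20 of the cap, passed the filter of 1 TPM in 3 libraries in every line. Averaged over the 9 groups, PSMB and PSMA genes headed the order, and PSMB4 at 666 TPM and PSMA7 at 619 TPM led, followed by PSMB1, PSMB3 and PSMB6. PSMC5, an ATPase, was the highest cap gene at 309.8 TPM, beside the lid subunit PSMD8 at 309 TPM, and the 2 do not differ beyond the spread over groups. At the low end stood PSMA5 at 71.7 TPM, PSMB10 at 68.9 TPM and the chaperones PSMD5 and PSMD9, at 50.1 and 40.04 TPM. PSMC6, the lowest ATPase, was at 115 TPM. Between libraries of 1 group the levels were close, with a median coefficient of variation over the 35 genes of 2.65% to 5.43%. Between groups they ranged further, from 1.71 times between the lowest and highest group for PSMA3 to 3.85 times for PSMC2. For 15 of the 37 genes the annotation holds pseudogenes, 36 in all, none of which is among the symbols listed, so reads shared with such copies or with overlapping genes are an uncertain part of these levels. HCT116 5-FU res cells were the lowest of the 9 groups for 26 of the 35 genes, and the highest group was SW480 WT for 14, HCT116 WT for 9 and DLD-1 OX res for 8.

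Transcription factors shared by genes read short elements in their promoters, so the sequences before a few start sites are shown. RefSeq start-site windows of 300 bases (GRCh38.p14) were held for 32 of the 37 genes and for 16160 genes of the files. The core of the antioxidant response element, TGACNNNGC, which NRF1 and NRF2 bind with small MAF proteins, was searched on both strands. It was found in 9 of the 32 genes (28.1%), namely PSMA4, PSMB3, PSMC4, PSMC5, PSMD1, PSMD3, PSMD5, PSMD9 and PSMD12, against 17.8% of all genes with a window. By particle it was in 2 of 13 core genes (15.4%) and 7 of 19 cap genes (36.8%). The ETS motif CCGGAAG was in 37.5% of the 32 genes (15.4% of core and 52.6% of cap genes) against 15.5% of all, and the CCAAT box, CCAAT, in 53.1% against 41.8%. A match describes the letters of the window and is not a measured binding site. PSMB5 is shown as the catalytic chain with the largest fall reported below, and PSMA4, PSMB3, PSMD3 and PSMD12 as core and cap genes that hold the element, each for the 180 bases before a start site, 5′ to 3′ on the gene's strand with the element in capitals. The stretches lie at chr14:23035221-23035400 (minus strand), chr15:78540606-78540785 (plus strand), chr17:38752561-38752740 (plus strand), chr17:39980627-39980806 (plus strand) and chr17:67366578-67366757 (minus strand), in that order.

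PSMA4 has 3 windows, of which the 1 with the element is shown, and PSMB5 has 2, neither with the element; a gene was counted when any of its windows held it. The PSMB5 stretch holds no element, and in the other 4 it begins 126, 104, 37 and 165 bases before the start site.
PSMB5: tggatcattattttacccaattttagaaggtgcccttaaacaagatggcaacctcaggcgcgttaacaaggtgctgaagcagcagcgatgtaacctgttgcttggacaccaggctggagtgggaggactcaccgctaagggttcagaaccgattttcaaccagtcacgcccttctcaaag
PSMA4: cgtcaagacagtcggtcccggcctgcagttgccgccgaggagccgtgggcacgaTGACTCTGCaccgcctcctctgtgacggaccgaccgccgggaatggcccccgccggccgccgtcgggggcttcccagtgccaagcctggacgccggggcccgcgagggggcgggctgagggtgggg
PSMB3: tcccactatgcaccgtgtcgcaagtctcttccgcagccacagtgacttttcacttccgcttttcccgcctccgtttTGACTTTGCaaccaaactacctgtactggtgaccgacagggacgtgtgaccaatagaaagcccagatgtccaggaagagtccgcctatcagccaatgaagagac
PSMD3: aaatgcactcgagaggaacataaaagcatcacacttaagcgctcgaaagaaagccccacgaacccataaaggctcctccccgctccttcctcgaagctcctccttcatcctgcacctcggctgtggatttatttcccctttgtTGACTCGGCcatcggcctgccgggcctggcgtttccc
PSMD12: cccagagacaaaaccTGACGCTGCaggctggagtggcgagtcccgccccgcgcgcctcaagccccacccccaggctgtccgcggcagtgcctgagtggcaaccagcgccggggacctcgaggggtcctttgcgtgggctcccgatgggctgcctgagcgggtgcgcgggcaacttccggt

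In HCT116 5-FU res cells the subunit genes fell almost as a block. Of the 35 genes tested, 34 were lower than in WT and none was higher, against 27.5% lower and 47.3% higher of the 14010 genes tested. All 15 core genes and 19 of 20 cap genes were called. The median change of the 35 was -0.74, or -0.92 against the median of all genes, and it was -1.03 for the core and -0.62 for the cap. A fall of more than 1 on the log2 scale was reached by 9 of the 35 genes, 8 of them core genes, against 3.82% of all genes. PSMB5, the chymotrypsin-like chain, was at 429.9, 451 and 424 TPM in the WT libraries and at 177, 182 and 184 TPM in the 5-FU res libraries (log2 fold change -1.26, SE 0.045, adjusted p = 7.3e-10). PSMB6, the caspase-like chain, was at 558, 566 and 548 TPM before and 225, 247 and 237 TPM after selection (log2 fold change -1.23, SE 0.046, adjusted p = 1.1e-09). For both chains every resistant library lay far below every WT library. Groups without overlap were seen for 34 of the 35 genes and for 77.9% of all genes. PSMD2, the largest fall in the cap and a scaffold that receives ubiquitin-like proteins, went from 344, 357 and 356 TPM to 168, 161 and 168 TPM (log2 fold change -1.08, SE 0.042, adjusted p = 1.5e-09). The other core genes past log2 -1 were PSMB2 (-1.05, SE 0.051), PSMB3 (-1.07, SE 0.036), PSMB4 (-1.05, SE 0.039), PSMA4 (-1.04, SE 0.055), PSMA7 (-1.04, SE 0.055) and the inducible chain PSMB10 (-1.03, SE 0.067). The smallest change was that of PSMD10, the chaperone also known as gankyrin, at 59.3, 58.96 and 62.5 TPM in WT and 52.8, 51.99 and 63.6 TPM in 5-FU res libraries, which overlapped (log2 fold change -0.11, SE 0.074, adjusted p = 0.22). Without 5-FU res replicate 3 PSMD10 was called, at -0.20 (adjusted p = 0.012). It was also called lower under median-of-ratios scaling and with the deposited FPKM, where all 35 genes were. PSMD5 fell less than most, from 30.2 ± 1.17 TPM to 24.8 ± 1.46 TPM (SD, n = 3, log2 fold change -0.28).

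On the TPM scale HCT116 OX res cells showed a smaller and less uniform fall. There 23 of the 35 genes were lower and 4 were higher, against 18.1% and 68.1% of all genes tested. The median change was -0.26, or -0.86 against that of all genes. With the libraries scaled by the median of ratios instead of their sum, 34 were lower and none was higher. The median change was then -0.90, close to the -0.98 of 5-FU res cells under that scaling, where 35 were lower. PSMB3, a non-catalytic inner-ring chain, fell most, from 717, 730.4 and 696 TPM to 362, 363 and 359 TPM (log2 fold change -0.98, SE 0.036, adjusted p = 2.1e-10). PSMB5 was second, with 282, 258 and 264 TPM in the OX res libraries (log2 fold change -0.70, SE 0.045, adjusted p = 2.5e-08). Both groups of OX res values lay below every WT value and, for PSMB5, above every 5-FU res value. The genes called higher were PSMD10, PSMD5, PSMA6 and PSMC2. PSMD10 rose from 60.3 ± 1.98 TPM to 105, 109.8 and 98.5 TPM (log2 fold change 0.78, SE 0.074, adjusted p = 8.1e-07), and was not called under median-of-ratios scaling (0.15, adjusted p = 0.13). PSMD5 rose from 30.2 ± 1.17 TPM to 41.2, 41.3 and 41.8 TPM (log2 fold change 0.44, SE 0.059, adjusted p = 1.8e-05), a direction that turned under median-of-ratios scaling, quantile normalization, the deposited FPKM and removal of the length trend. The chaperone PSMD9 was at 37.6 ± 0.208 TPM in WT and 38.3 ± 1.59 TPM in OX res libraries (log2 fold change 0.026, SE 0.057, adjusted p = 0.68), which turned to -0.60 under median-of-ratios scaling, -0.52 with the deposited FPKM, -0.40 under quantile normalization and -0.49 with the length trend removed. PSMA7, past log2 -1 in the 5-FU res cells, was at 581, 591 and 553 TPM here, overlapping the WT libraries at 599, 626 and 584 TPM.

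**Figure D1:**
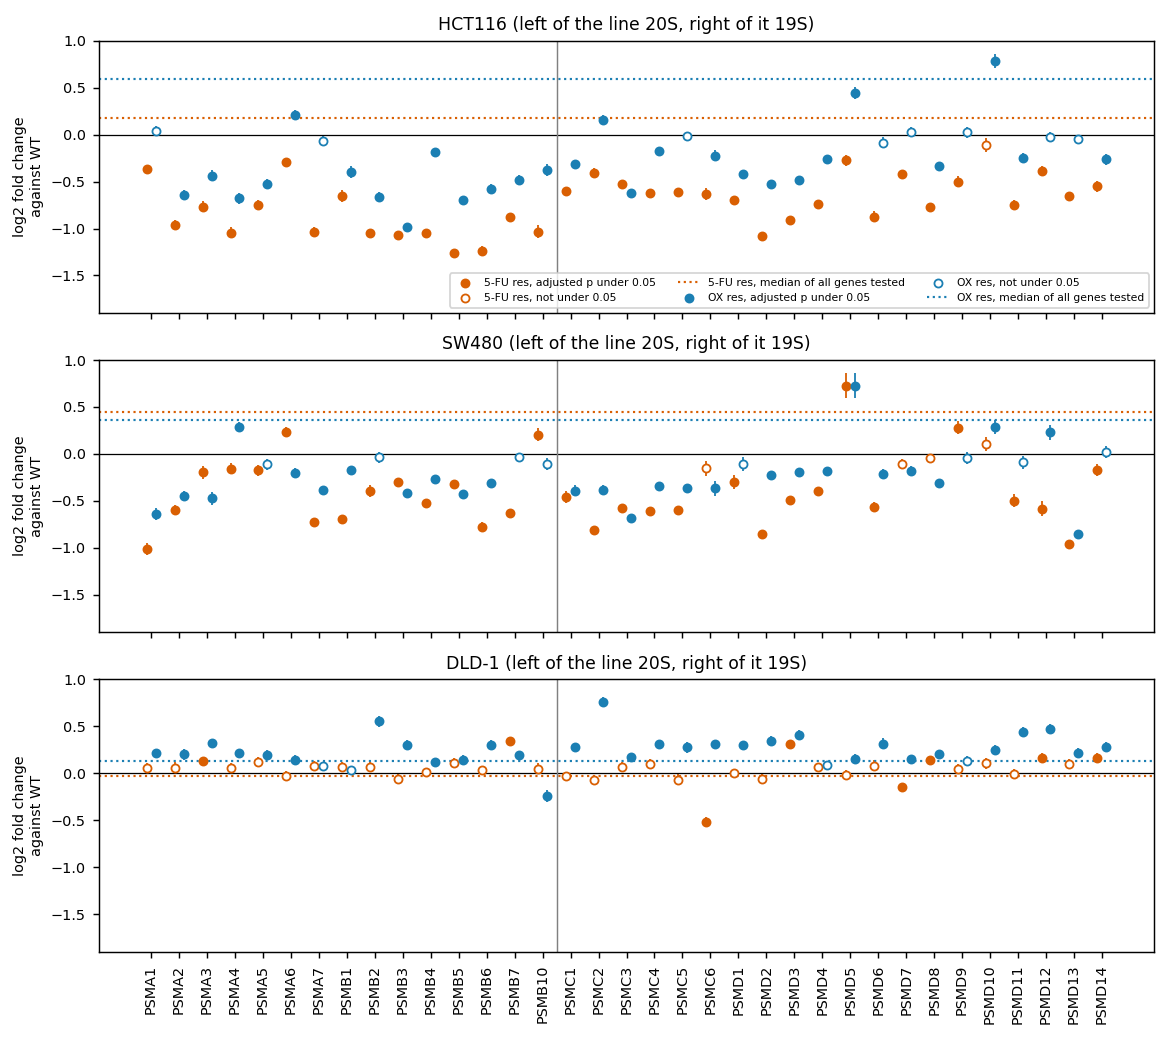
Log2 fold change of each of the 35 subunit genes tested (horizontal axis) against WT, with its standard error, in 5-FU res (orange) and OX res (blue) cells of each line; filled points were called at an adjusted p under 0.05, and dotted lines mark the median of all genes tested. In HCT116 and SW480 nearly all points lie below the dotted line of their comparison (35, 34, 34 and 34 of 35), and in DLD-1 8 and 6 do.

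In SW480 both resistant lines were lower than WT cells in most subunit genes. In SW480 5-FU res cells 27 genes were lower and 4 higher (15.6% and 61.7% of the 14039 genes tested), with a median of -0.46, or -0.90 against all genes. In SW480 OX res cells 23 were lower and 4 higher (14.5% and 57.4% of all genes), with a median of -0.21, or -0.58 against all genes. With median-of-ratios scaling the counts were 33 lower and 1 higher for 5-FU res and 34 lower and 1 higher for OX res. The gene with the largest fall differed from HCT116. PSMA1, an outer-ring chain, went from 469, 425 and 456 TPM to 231, 226 and 209.9 TPM in 5-FU res cells (log2 fold change -1.01, SE 0.063, adjusted p = 1.3e-07), the 1 gene past log2 -1 (against 2.85% of all genes), and was at 300.0, 264 and 299.9 TPM in OX res cells. PSMD13, a lid subunit, went from 290.3, 295 and 289.5 TPM to 153, 149 and 146 TPM (log2 fold change -0.96, SE 0.042, adjusted p = 1.1e-08) and 164, 156 and 165 TPM (log2 fold change -0.85, SE 0.042, adjusted p = 7.4e-08). For both genes each resistant library lay below each WT library. PSMC3, an ATPase, fell in SW480 OX res cells from 350.2 ± 18.6 TPM to 218 ± 8.10 TPM (log2 fold change -0.68, SE 0.049, adjusted p = 8.8e-07). PSMD2 fell in both resistant lines, to 301 ± 8.33 TPM and 464 ± 7.65 TPM from 543 ± 24.2 TPM in WT cells (SD, n = 3).

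Against this fall, the assembly chaperone PSMD5 rose in both SW480 resistant lines. It was at 36.8, 24.1 and 32 TPM in WT, 50.6, 52.6 and 50.3 TPM in 5-FU res and 53.7, 44.7 and 55.9 TPM in OX res libraries (log2 fold change 0.73, SE 0.13, adjusted p = 4.7e-04 and log2 fold change 0.73, SE 0.13, adjusted p = 5.6e-04). The WT libraries were the most spread of any subunit gene in any group, with a coefficient of variation of 20.7%, yet each resistant library exceeded the highest of them. PSMD9 was called higher in 5-FU res cells, from 38.96 ± 2.17 TPM to 47.5 ± 2.31 TPM (log2 fold change 0.28, SE 0.067, adjusted p = 0.0028), a change that turned under median-of-ratios scaling, quantile normalization, the deposited FPKM and removal of the length trend. In OX res cells PSMD9 was not called (log2 fold change -0.045). Under median-of-ratios scaling and with the deposited FPKM it was among 19 of the 20 cap genes called lower there. PSMB10 was higher in 5-FU res cells at 78.2, 77.8 and 72.3 TPM against 60.1, 71.4 and 66.5 TPM (log2 fold change 0.21, SE 0.068, adjusted p = 0.017), a rise that turned under median-of-ratios scaling, quantile normalization and the deposited FPKM. It was not called without WT replicate 1 (0.14, adjusted p = 0.061), 5-FU res replicate 1 (0.19, adjusted p = 0.062) or 5-FU res replicate 2 (0.19, adjusted p = 0.058). PSMA4 was higher in OX res cells at 394 ± 16.7 TPM against 323 ± 17.8 TPM (log2 fold change 0.29, SE 0.055, adjusted p = 8.1e-04), and PSMD10 at 101 ± 6.24 TPM against 82.97 ± 5.97 TPM (log2 fold change 0.28, SE 0.074, adjusted p = 0.0052), and both turned under median-of-ratios scaling and the deposited FPKM, PSMA4 also with the length trend removed.

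Both drugs gave a called fall in both lines for 13 of the 35 genes: PSMA2, PSMA3, PSMB1, PSMB3, PSMB4, PSMB5, PSMB6, PSMC1, PSMC3, PSMC4, PSMD2, PSMD3 and PSMD4. Of the 12824 genes tested in both lines, 3.64% were. The 2 resistant lines of a parent share its WT libraries, so these 4 comparisons are not independent. None of the 35 genes was called higher in all 4, and none was called in the same direction in all 6 comparisons with WT.

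In DLD-1 5-FU res cells 6 genes were higher (PSMA3, PSMB7, PSMD3, PSMD8, PSMD12 and PSMD14) and 2 lower (PSMC6 and PSMD7), against 20.5% and 25.9% of the 13467 genes tested. With median-of-ratios scaling 14 were higher and 2 lower, and leaving out DLD-1 5-FU res replicate 3 gave 16 higher, among them PSMB5 (0.17), PSMD13 (0.15), PSMA2 (0.14), PSMA7 (0.12), PSMA4 (0.11) and PSMA1 (0.10). Without WT replicate 3 or 5-FU res replicate 1 there were 3, and without 5-FU res replicate 2 there were 2. The median change was 0.061. PSMB7, the trypsin-like chain, rose from 282, 282 and 276 TPM to 365, 359 and 346 TPM (log2 fold change 0.35, SE 0.042, adjusted p = 3.2e-05), and its groups did not overlap. The lid subunit PSMD3 rose from 228 ± 3.87 TPM to 283 ± 10.7 TPM (log2 fold change 0.31, SE 0.047, adjusted p = 1.9e-04). PSMC6, an ATPase, was the clearest fall, from 142, 145 and 139 TPM to 102, 103 and 92.3 TPM (log2 fold change -0.52, SE 0.048, adjusted p = 4.0e-06). PSMD7, the lid partner of PSMD14, was at 255 ± 6.80 TPM and 231 ± 11.5 TPM (log2 fold change -0.14, SE 0.044, adjusted p = 0.019), and was not called without WT replicate 1 (-0.12, adjusted p = 0.087) or 5-FU res replicate 1 (-0.14, adjusted p = 0.052).

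In DLD-1 OX res cells 30 of the 35 genes were higher and 1 was lower, against 38.7% and 11.2% of all genes. The higher genes were 12 of 15 core and 18 of 20 cap genes. The rise was small, with a median of 0.22, or 0.088 against the median of all genes, and with median-of-ratios scaling 15 were higher and 1 lower. PSMC2, an ATPase, rose most, from 116, 121 and 113 TPM to 194, 198 and 201 TPM (log2 fold change 0.76, SE 0.054, adjusted p = 4.6e-07). PSMB2, an inner-ring chain, rose from 76.8, 81.97 and 76.8 TPM to 113, 125 and 109.8 TPM (log2 fold change 0.55, SE 0.056, adjusted p = 8.9e-06). Neither gene's groups overlapped, and in DLD-1 5-FU res cells they were at 111 ± 7.86 TPM and 82.2 ± 3.42 TPM. The gene called lower was PSMB10, at 51.1, 44.3 and 48.4 TPM in WT and 40.6, 38.1 and 42.1 TPM in OX res libraries (log2 fold change -0.24, SE 0.061, adjusted p = 0.0056). PSMB1, an inner-ring chain, was at 661 ± 11.3 TPM and 675 ± 31.1 TPM and was not called (log2 fold change 0.030, SE 0.050, adjusted p = 0.65).

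As sums, the subunits took 0.974 to 1.02% of all TPM in HCT116 WT libraries, 0.556 to 0.577% in 5-FU res and 0.775 to 0.811% in OX res libraries. In SW480 the share was 1.10 to 1.12%, 0.788 to 0.816% and 0.898 to 0.934%, and in DLD-1 0.838 to 0.852%, 0.835 to 0.903% and 0.972 to 1.004%. The groups of a line did not overlap, except for DLD-1 WT and DLD-1 5-FU res. These sums are on the TPM scale alone. With median-of-ratios scaling the median difference of OX res against 5-FU res in HCT116 went from 0.45 to 0.052. The median change of DLD-1 OX res against WT went from 0.22 to 0.078. Ribosomal protein genes took 21.8 to 22.8%, 23.7 to 25.7% and 11.8 to 12.8% in the WT, 5-FU res and OX res libraries of HCT116, an order other than that of the subunits. In SW480, where the order of the groups was that of the subunits, they took 20.96 to 22.3%, 14.1 to 14.2% and 16.2 to 16.7%, and in DLD-1 19.3 to 19.9%, 17.6 to 19.3% and 14.6 to 15.4%. Their part in the subunit changes was not tested.

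**Figure D2:**
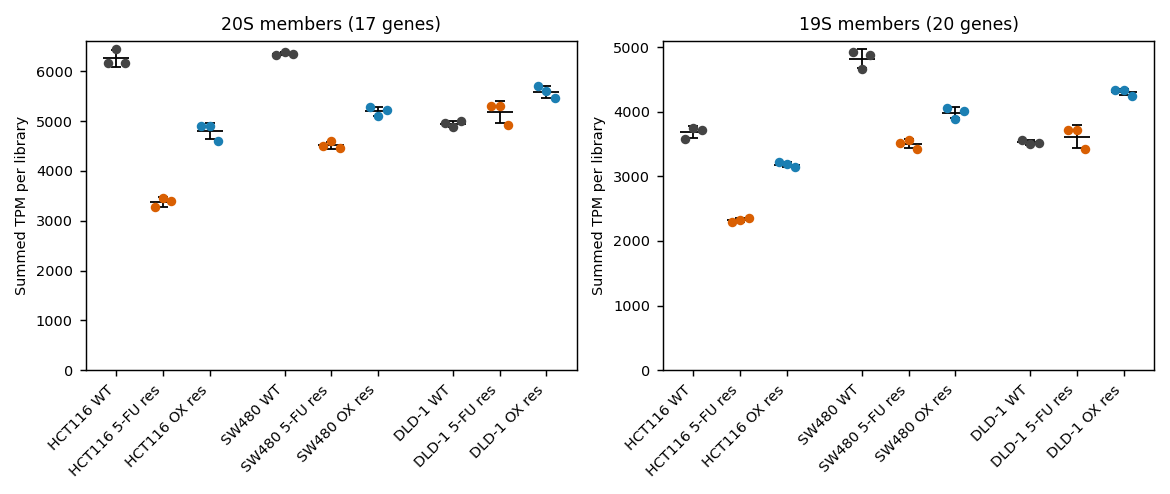
Summed TPM of the 17 core and 20 cap genes in each of the 27 libraries (points), with the mean and SD of the 3 libraries of a group, on axes from 0. In HCT116 5-FU res cells the core sum was 53.9% and the cap sum 63.04% of the WT mean, and in DLD-1 OX res cells 113% and 122.0%.

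The finished particle joins a core with a cap, and their changes were set side by side. In each library the mean log2(TPM + 1) of the 15 core and the 20 cap genes tested was taken relative to the WT mean of the line. In HCT116 5-FU res cells the core fell by 0.90 ± 0.037 and the cap by 0.61 ± 0.021 (SD, n = 3). In HCT116 OX res cells the core fell by 0.43 ± 0.047 and the cap by 0.13 ± 0.011. The core thus lost more than the cap in both, by -0.29 ± 0.030 and -0.30 ± 0.036, and the 3 WT libraries lay within -0.039 and 0.020. This difference was negative under each of the settings tried, from -0.13 with the length trend removed to -0.41 with the median over the genes. DLD-1 OX res cells also had the core behind the cap (-0.11 ± 0.018), where the cap rose by 0.29 and the core by 0.18. DLD-1 5-FU res cells had a small difference the other way (0.052 ± 0.0053), with the WT libraries within -0.016 and 0.018.

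In SW480 the means of the core and the cap changed by amounts close to each other. The core changed by -0.40 and the cap by -0.35 in 5-FU res cells, and by -0.25 and -0.18 in OX res cells. The differences of -0.049 ± 0.0079 and -0.067 ± 0.0052 are of the size of the spread of the WT libraries (-0.052 to 0.067). They turned to 0.035 and 0.012 when PSMB10, PSMD5, PSMD9 and PSMD10 were left out as no parts of the mature constitutive particle, and to 0.052 and 0.048 with the length trend removed. With the median over the genes in place of the mean, the 5-FU res difference turned to 0.20, outside the range of the WT libraries. Before selection, the mean log2 level of the core stood above that of the cap by 1.202 ± 0.034 in HCT116 WT, 0.73 ± 0.061 in SW480 WT and 0.72 ± 0.017 in DLD-1 WT cells. HCT116 was the highest of the 3, and its 2 resistant lines, at 0.91 and 0.90, remained above every SW480 and DLD-1 group. As a ratio of summed TPM, core to cap went from 1.70 ± 0.035 in HCT116 WT to 1.45 ± 0.032 with 5-FU and 1.51 ± 0.037 with OX resistance. No p is given for these means, as the genes are not replicates and 3 against 3 libraries cannot reach an exact permutation p below 0.1.

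**Figure D3:**
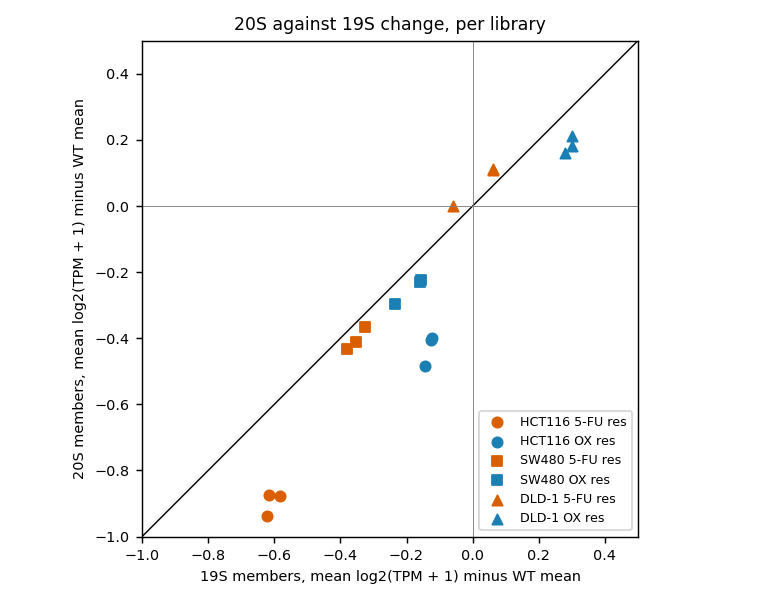
Mean change of the core genes (vertical axis) against that of the cap genes (horizontal axis), both as mean log2(TPM + 1) minus the WT mean of the line, with 1 point per resistant library and the line of equal change. The 6 HCT116 libraries lie below the line by 0.26 to 0.34, the 6 SW480 libraries by 0.041 to 0.071, the 3 DLD-1 OX res libraries by 0.088 to 0.12, and the 3 DLD-1 5-FU res libraries lie above it by 0.047 to 0.057.

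The 3 proteolytic chains changed by different amounts in each line. Their genes lie (hg19) at chr14:23485752-23504439 (minus strand) for PSMB5, chr17:4699439-4701797 (plus strand) for PSMB6 and chr9:127115744-127177723 (minus strand) for PSMB7. In HCT116 WT cells PSMB6 was highest at 557 ± 9.20 TPM, then PSMB5 at 435 ± 13.9 TPM and PSMB7 at 323 ± 5.43 TPM (SD, n = 3). In HCT116 5-FU res cells they stood at 236 ± 11 TPM, 181 ± 3.65 TPM and 175 ± 8.19 TPM, so that PSMB5 and PSMB7 overlapped. PSMB7 had -0.88 (SE 0.047) with 5-FU and -0.48 (SE 0.047) with OX resistance, each a smaller fall than those of PSMB5, a difference between genes that was not tested. PSMB6 fell in OX res cells by 0.58 (SE 0.046). In SW480 the order of the falls was another: PSMB6 had -0.78 (SE 0.049) and PSMB7 -0.63 (SE 0.041) in 5-FU res cells, where PSMB5 had -0.32 (SE 0.043). In SW480 OX res cells PSMB5 had -0.43 (SE 0.043) and PSMB6 -0.31 (SE 0.049), while PSMB7 was at 384, 363 and 371 TPM against 384, 375 and 385 TPM and was not called (log2 fold change -0.034, SE 0.041, adjusted p = 0.47). Under median-of-ratios scaling and with the deposited FPKM, all 15 core genes tested, PSMB7 among them, were called lower in SW480 OX res cells. In DLD-1 5-FU res cells PSMB5 (0.11) and PSMB6 (0.030) were not called. In DLD-1 OX res cells PSMB6 rose by 0.31 (SE 0.044) and PSMB7 by 0.20 (SE 0.042), and PSMB5 by 0.14 (SE 0.051), which turned to -0.00238 under median-of-ratios scaling and was not called with any 1 of the 3 WT libraries or OX res replicate 1 or 2 left out (0.11 to 0.16, adjusted p = 0.054 to 0.12). PSMB10, which replaces PSMB7 in immunoproteasomes, was called lower in both HCT116 lines, at 60.1 ± 3.65 TPM and 95.3 ± 5.56 TPM against 124 ± 9.26 TPM, and its level in HCT116 WT was above that in SW480 WT (65.98 ± 5.69 TPM) and DLD-1 WT cells (47.9 ± 3.40 TPM).

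**Figure D4:**
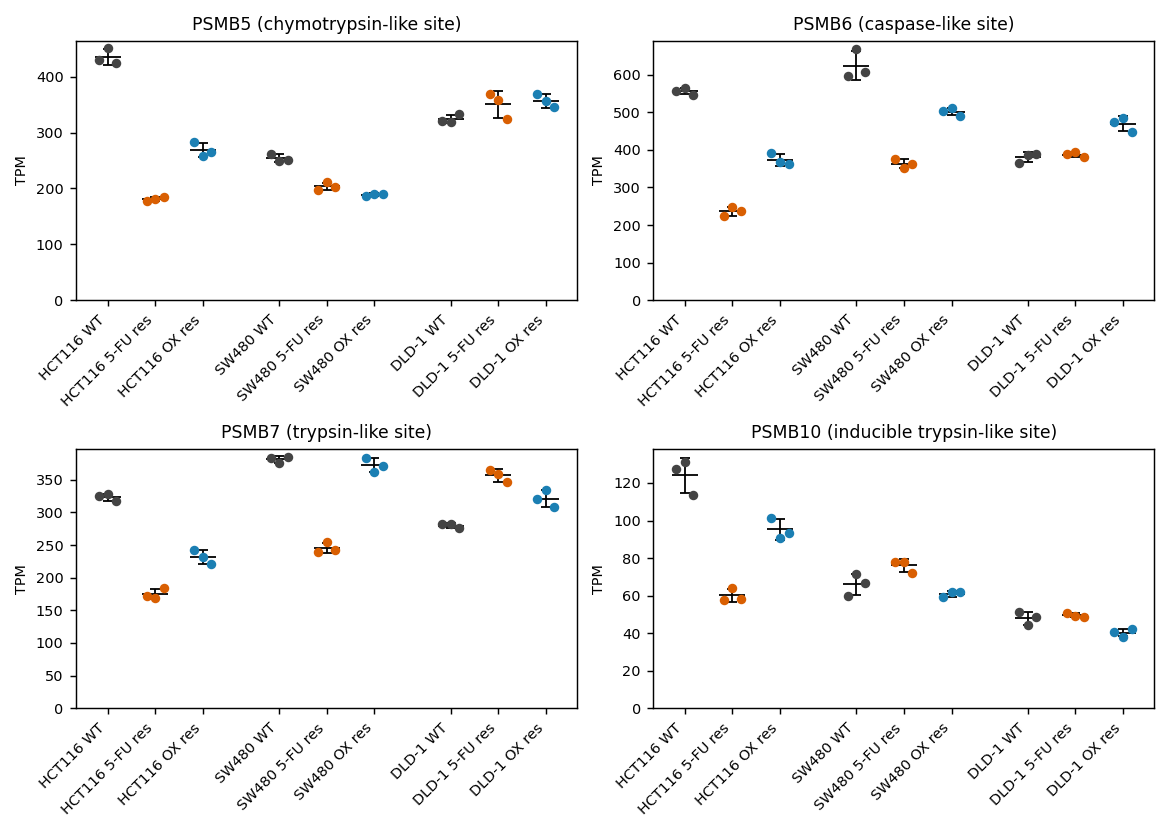
TPM of PSMB5, PSMB6, PSMB7 and PSMB10 in each of the 27 libraries (points), with the mean and SD of the 3 libraries of a group; each panel has its own axis from 0. PSMB5 spans 177 to 451 TPM, with HCT116 5-FU res lowest and HCT116 WT highest.

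The cap chaperones PSMD5, PSMD9 and PSMD10 are coded under the same names as the cap subunits but leave the finished particle, and their changes are given apart. On the TPM scale PSMD10 was called higher in HCT116 OX res, SW480 OX res and DLD-1 OX res cells (0.78, 0.28 and 0.25) and was not called in any 5-FU res line (-0.11, 0.11 and 0.11). Under median-of-ratios scaling and with the deposited FPKM, all 35 subunit genes, PSMD10 among them, were called lower in HCT116 5-FU res cells. Set directly against 5-FU res cells, OX res cells had more PSMD10 in HCT116 (0.89). The direct differences in SW480 and DLD-1 are not given here, and a call with 1 drug alone does not show that the drugs differ. The HCT116 OX res rise was not called under median-of-ratios scaling. The SW480 OX res rise turned under that scaling and the deposited FPKM, and so did the SW480 5-FU res value. PSMD5 went from -0.28 in HCT116 5-FU res to 0.73 in SW480 5-FU res cells, its lowest and highest change. It was not called in DLD-1 5-FU res cells (-0.017), and its DLD-1 OX res change (0.15) turned under quantile normalization and was not called without WT replicate 1 or 3 or OX res replicate 2 or 3 (0.13 to 0.15, adjusted p = 0.057 to 0.088). PSMD9 fell in HCT116 5-FU res cells (-0.50, SE 0.057) and was not called in either DLD-1 line (0.048 and 0.13), except in DLD-1 OX res without WT replicate 3 (0.18, adjusted p = 0.030) or 5-FU res replicate 3 (0.13, adjusted p = 0.049). PSMD10 was called in DLD-1 5-FU res cells without their replicate 3 (0.15, adjusted p = 0.044).

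Set against each other, OX res cells had more subunit genes higher than lower in each line. In HCT116, OX res had 34 genes higher and 1 lower (56.7% and 20.4% of all genes tested), with median-of-ratios scaling 13 and 3. The median difference was 0.45, or 0.11 against that of all genes, and 0.052 with median-of-ratios scaling. PSMA7 differed most, at 581, 591 and 553 TPM against 279, 319.6 and 282 TPM (log2 fold change 0.97, SE 0.055, adjusted p = 1.0e-08), followed by PSMD10 (0.89, SE 0.074). PSMC3 was the gene called lower (log2 fold change -0.091, SE 0.039, adjusted p = 0.049), and it was not called with any 1 of the 9 libraries of the line left out (-0.11 to -0.063, adjusted p = 0.054 to 0.16). In SW480 21 were higher and 8 lower (27.3% and 34.3% of all genes), with PSMD12, a lid subunit (0.81, SE 0.081), and PSMD2 (0.63, SE 0.043) at the top and the outer-ring chain PSMA6 (-0.43, SE 0.055) at the bottom. Without SW480 5-FU res replicate 2 or SW480 OX res replicate 3 there were 5 lower. In DLD-1 21 were higher and 2 lower (44.6% and 18.3% of all genes), and with median-of-ratios scaling 12 and 7, where the median difference went from 0.16 to -0.012. The ATPases PSMC2 (0.83, SE 0.054) and PSMC6 (0.83, SE 0.048) stood highest there, and PSMB10 lowest (-0.29, SE 0.061).

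The change with resistance was tested for a difference between lines in 1 fit over all 27 libraries. For 5-FU res, 32 of the 35 genes had a higher change in DLD-1 than in HCT116 and none a lower one, against 23.3% and 40.4% of the 15801 genes tested. Between DLD-1 and SW480 28 were higher and 4 lower (14.6% and 54.8% of all genes). Between SW480 and HCT116 25 were higher and 3 lower in SW480 (42.3% and 20.6% of all genes), but with median-of-ratios scaling 15 and 8. For OX res, 28 genes were higher and 1 lower in DLD-1 than in HCT116 (19.8% and 52.1% of all genes), and 31 and 1 in DLD-1 than in SW480 (18.5% and 41.2% of all genes). SW480 and HCT116 were split, with 14 higher and 9 lower in SW480 (24.4% and 37.7% of all genes), or 18 and 6 with median-of-ratios scaling. These 3 contrasts per drug share groups. Past log2 1 higher were 12 of the 35 genes for 5-FU in DLD-1 against HCT116, where 5.13% of all genes were, and 2 in each of the other 4 contrasts with any: 5-FU in SW480 against HCT116 (14.3% of all genes), 5-FU in DLD-1 against SW480 (3.50%), and OX in DLD-1 against HCT116 (6.58%) and SW480 (3.45%). The largest difference was that of PSMB5 under 5-FU, 1.37 (SE 0.063) between DLD-1 (0.11) and HCT116 (-1.26).

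Among the WT lines the subunits did not keep 1 order. SW480 WT had 19 genes higher and 10 lower than HCT116 WT (37.3% and 37.8% of all genes). DLD-1 WT had 9 higher and 18 lower than HCT116 WT (53.2% and 25.8% of all genes), or 2 and 31 with median-of-ratios scaling. Against SW480 WT it had 8 higher and 23 lower (53.8% and 27.1% of all genes), or 1 and 33. The ATPase PSMC2 was at 269, 246 and 268 TPM in SW480 WT, 116, 121 and 113 TPM in DLD-1 WT and 88.4, 91.2 and 91.1 TPM in HCT116 WT libraries, with no overlap between the 3 lines. PSMD2 was at 543 ± 24.2 TPM, 352 ± 7.51 TPM and 178 ± 5.69 TPM in SW480, HCT116 and DLD-1 WT cells, and PSMD5 at 30.98 ± 6.41 TPM, 30.2 ± 1.17 TPM and 71.2 ± 2.46 TPM, with SW480 and HCT116 overlapping.

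Core transcripts are short, and transcript length went with the change of all genes. The canonical transcripts of the annotation had a median of 1023 bases for the 17 core and 1950.5 bases for the 20 cap genes, against 2468 bases for all symbols with a length. In HCT116 5-FU res cells the median log2 change of all genes ran from -0.21 in the bin of the shortest transcripts to 0.60 in that of the longest, with genes split by length into 4 bins of like size, and in SW480 OX res cells from 0.023 to 0.73. In DLD-1 5-FU res cells it was -0.033 and -0.028. Within the shortest bin, which holds 12 core and 10 cap genes, the medians in HCT116 5-FU res cells were -0.996 for the core and -0.62 for the cap, and with OX resistance -0.42 and -0.13. The SW480 5-FU res medians were -0.56 and -0.48. With the trend on length removed, 33 subunit genes were called lower in either resistant line of HCT116, against 34 (5-FU) and 23 (OX) without that step, and 30 in either of SW480, against 27 and 23.

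**Figure D5:**
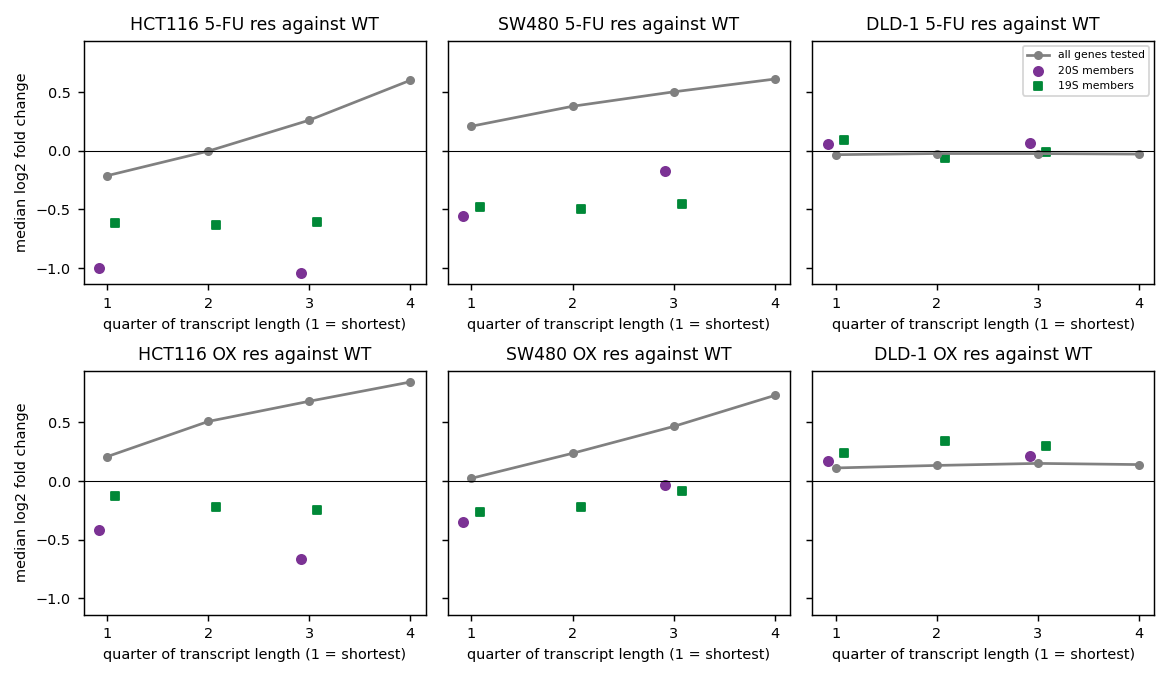
Median log2 fold change against WT of all genes tested (grey), of core genes (purple) and of cap genes (green) by 4 bins of transcript length, from shortest to longest, for the 6 comparisons. The grey line climbs in the HCT116 and SW480 panels and is flat in DLD-1, and in the HCT116 and SW480 panels the subunit points lie below it.

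Of the other genes of the pathway, 41 were grouped by role and set beside the subunits, and their counts stand against the shares of all genes given for each comparison above. Of 6 assembly chaperones, 4 were lower in each HCT116 line and 5 in each SW480 line, while in DLD-1 none was lower. POMP, which guides the closing of the core, was at 482, 446 and 462 TPM in SW480 WT and 155, 146 and 152 TPM in SW480 5-FU res libraries (log2 fold change -1.61, SE 0.058, adjusted p = 2.8e-09). Its other changes were -0.91 and -0.40 in HCT116 5-FU res and OX res, -0.40 in SW480 OX res, and 0.25 and 0.17 in DLD-1 5-FU res and OX res cells. PSMG1, which helps build the outer ring, changed by -0.82, -0.79, -0.94 and -0.48 in the same 4 HCT116 and SW480 comparisons, and by -0.067 (not called) and 0.16 in DLD-1. ADRM1, the ubiquitin receptor of the cap, went down in HCT116 5-FU res (-0.54) and both SW480 lines (-0.61 and -0.34) and up in DLD-1 5-FU res cells (0.27). It was also higher in HCT116 OX res (0.33) and DLD-1 OX res cells (0.14), 2 directions that turned under median-of-ratios scaling and the deposited FPKM. The DLD-1 OX res changes of these genes were small and were not called without some single libraries: ADRM1 without any 1 of the WT libraries, 5-FU res replicate 1 or OX res replicate 1 or 2 (0.085 to 0.15), POMP without WT replicate 2 or 3 or OX res replicate 1 or 3 (0.12 to 0.18), and PSMG1 without WT replicate 2 or 3, 5-FU res replicate 1 or any 1 of the OX res libraries (0.12 to 0.17).

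Of 6 genes that act in the transcription of subunit genes, 5 (5-FU res) and 6 (OX res) were higher in HCT116, 4 and 5 in SW480, and none was lower, while in DLD-1 3 and 4 were higher, and in the OX res cells 1 was lower. Set beside 47.3% and 68.1% of all genes higher in HCT116 and 61.7% and 57.4% in SW480, the median change of the 6 was 0.39 (5-FU) and 0.93 (OX) in HCT116, where all genes had 0.18 and 0.60, and 0.64 and 0.57 in SW480, where they had 0.44 and 0.36. In DLD-1, where 20.5% and 38.7% of all genes were higher, the median of the 6 was 0.25 (5-FU) and 0.28 (OX). All genes had -0.027 and 0.13 there. With median-of-ratios scaling, tried for the partner roles after the results were seen, 3 (5-FU) and 4 (OX) were higher and 1 and 0 lower in HCT116, and 3 and 3 higher and 2 and 0 lower in SW480. In DLD-1 5 and 3 were then higher and 0 and 1 lower. NFE2L1 was at 77.5, 68.2 and 78.1 TPM in SW480 WT and 159, 151 and 149 TPM in SW480 5-FU res libraries (log2 fold change 1.03, SE 0.059, adjusted p = 7.3e-08), with no overlap. It rose by 0.74 in SW480 OX res, 0.89 in HCT116 OX res, 0.30 in DLD-1 5-FU res and 0.16 in DLD-1 OX res cells, and was not called in HCT116 5-FU res cells (0.052), a value that turned to -0.17 with the deposited FPKM, -0.19 with median-of-ratios scaling and -0.36 with the length trend removed. Its DLD-1 OX res rise was not called without WT replicate 3 (0.14, adjusted p = 0.058) or OX res replicate 2 (0.13, adjusted p = 0.063). MAFF, a small MAF partner of NRF1, passed log2 1 in HCT116 5-FU res (1.15, SE 0.068) and OX res cells (1.66, SE 0.068), and NFE2L2, which encodes NRF2, in HCT116 OX res cells (1.15, SE 0.068). DDI2, the protease that activates NRF1, is not 1 of these 6 genes and is counted below with the shuttle factors and proteins bound to the particle. DDI2 rose by 1.69 (SE 0.17) in HCT116 5-FU res and by 1.61 (SE 0.16) in SW480 OX res cells. Of all 14010 genes tested in HCT116, 1621 (5-FU) and 3991 (OX) were past log2 1 higher. In SW480 they were 2576 (5-FU) and 1930 (OX) of 14039. RNA levels of NRF1 and its protease do not give the amount of active factor.

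Of 11 shuttle factors and proteins bound to the particle, 8 (5-FU res) and 9 (OX res) were higher in HCT116, 6 and 8 in SW480, and 3 and 7 in DLD-1, with at most 3 lower in any of them. The shares of all genes called higher were 47.3% and 68.1%, 61.7% and 57.4%, and 20.5% and 38.7%. The median of the 11 was 0.49 with OX resistance in HCT116 and 0.20 with 5-FU resistance in SW480, below the medians of all genes (0.60 and 0.44). It lay above them with 5-FU resistance in HCT116 (0.31 against 0.18) and OX resistance in SW480 (0.45 against 0.36). In DLD-1 it also lay above them, at 0.083 against -0.027 (5-FU) and 0.23 against 0.13 (OX). With median-of-ratios scaling 4 (5-FU) and 3 (OX) were higher and 3 and 7 lower in HCT116, and 2 and 4 higher and 7 and 5 lower in SW480. ZFAND5, which stimulates the 26S particle, changed in SW480 by 1.45 (SE 0.096) with 5-FU and 1.05 (SE 0.096) with OX resistance. There 2576 (5-FU) and 1930 (OX) of all 14039 genes tested were past log2 1 higher. AKIRIN2, which brings proteasomes into the nucleus, changed by 1.01 (SE 0.051) and the shuttle UBQLN2 by 1.04 (SE 0.071) in HCT116 OX res cells. PAAF1, an assembly chaperone of the cap, was higher there too (1.05, SE 0.074), while POMP and PSMG1 fell. In that comparison 28.5% of all genes were past log2 1 higher, and against the median of all genes AKIRIN2 was at 0.41, UBQLN2 at 0.44, PAAF1 at 0.45, NFE2L2 at 0.56 and MAFF at 1.06. Of 7 genes of ubiquitin and its activation, 0 (5-FU) and 2 (OX) were higher and 4 and 4 lower in HCT116 (medians -0.20 and -0.10). In SW480 4 and 2 were higher and 2 and 3 lower (0.32 and -0.030), and in DLD-1 3 and 3 higher and 0 and 1 lower (0.15 and 0.088). All genes had medians of 0.18 and 0.60 in HCT116, 0.44 and 0.36 in SW480, and -0.027 and 0.13 in DLD-1. With median-of-ratios scaling 0 and 2 were higher and 5 and 5 lower in HCT116. In SW480 1 and 1 were then higher and 4 and 6 lower, and in DLD-1 4 and 1 higher and 0 and 2 lower. Among the 7 genes RPS27A, which encodes ubiquitin fused to a ribosomal protein, changed by -1.46 (SE 0.041) in SW480 5-FU res cells. UBA6, an activating enzyme, changed by 1.18 (SE 0.14) in SW480 OX res cells.

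Of the inducible chains left out by the rule, PSMB9 was at 84.7, 85.7 and 89.6 TPM in HCT116 WT, 16.02, 12.9 and 11.6 TPM in 5-FU res (log2 fold change -2.61, SE 0.092, adjusted p = 6.9e-10) and 293, 258 and 275 TPM in OX res libraries (log2 fold change 1.65, SE 0.092, adjusted p = 6.8e-09). PSMB8 was at 3.57, 3.73 and 3.27 TPM, 0.196, 0 and 0.435 TPM and 17.1, 17.1 and 14.9 TPM in the same groups. The 3 groups did not overlap for either gene, and 5-FU res and OX res lay on opposite sides of WT. PSMB9 also fell in DLD-1 5-FU res (-1.39) and rose in DLD-1 OX res cells (1.11), and fell by 0.42 in SW480 OX res cells. PSME2, a subunit of the 11S activator, changed by -1.06 (SE 0.058) in HCT116 5-FU res cells.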

How the data were processed

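RNA of 27 libraries was sequenced from stranded mRNA libraries. Per the labels and the study's methods, the authors aligned reads to hg19 with TopHat2 2.1.1 (Bowtie2 2.2.8, SAMtools 0.1.18) and deposited 1 FPKM value per gene symbol and library; the methods name Cufflinks and the processing notes Cuffdiff 2.2.1. Reads per library are unknown, so counting intervals are not given. FPKM was divided by the library sum to give TPM. Genes at 1 TPM or more in 3 libraries of a fit entered limma 3.58.1 (R 4.3.3, eBayes with trend) on log2(TPM + 1), per line for comparisons within a line and over 27 libraries for those between lines, with Benjamini-Hochberg adjustment over all genes tested. The fits were tested on simulated data. A pseudocount understates the change of low genes.

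Transcript lengths came from GENCODE v44lift37, matched to 22422 symbols directly and to 1358 by an older symbol, with 2475 unmatched. The genes and lists were chosen with earlier results of these data known. Genes given with fold changes were the proteolytic chains, the cap chaperones, genes past log2 1, the extremes of each comparison and, of the partner genes, NFE2L1, POMP, PSMG1, ADRM1, PSMB8, PSMB9 and those past log2 1. Replicate numbers gave no pairing (correlations of deviations from -0.20 to 0.22 over same-numbered pairs). Other scalings, filters, pseudocounts, fits and single libraries left out were tried.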

Additional observations from a re-analysis of the deposited data

Results flagged for a closer look

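The changes with resistance of 16 subunit genes differed between lines by more than log2 1 in the fit over all 27 libraries, tested as the difference itself (limma, adjusted p under 0.05). Each value is the change in the first line minus that in the second.

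For 5-FU res, DLD-1 minus HCT116 gave PSMA2 1.01, PSMA4 1.10, PSMA7 1.12, PSMB10 1.08, PSMB2 1.12, PSMB3 1.01, PSMB4 1.06, PSMB5 1.37, PSMB6 1.26, PSMB7 1.23, PSMD2 1.02 and PSMD3 1.22. For 5-FU res, SW480 minus HCT116 gave PSMB10 1.24 and PSMD5 1.001. For 5-FU res, DLD-1 minus SW480 gave PSMA1 1.07 and PSMD13 1.06. For OX res, DLD-1 minus HCT116 gave PSMB2 1.22 and PSMB3 1.29, and DLD-1 minus SW480 gave PSMC2 1.14 and PSMD13 1.07. In all 20 values the change in the line named first lay above that in the other. Differences past log2 1 in that direction were found for 5.13%, 14.3%, 3.50%, 6.58% and 3.45% of all genes in the same order, against 12, 2, 2, 2 and 2 of the 35 subunit genes. The share of the subunit genes was below that of all genes for 5-FU in SW480 minus HCT116 and for OX in DLD-1 minus HCT116. The DLD-1 libraries carry their own series of names, so line and library set cannot be told apart in the values that involve DLD-1.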

How the results depend on the processing

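The falls in the resistant lines of HCT116 and SW480 kept their direction and stayed within 1.5 times the reported count of genes under every alternative run. Counts of genes in the rarer direction, of DLD-1 and of OX res against 5-FU res moved with the scaling, and the cause was not tested. No depth in reads was known, so small changes of low genes could not be weighed against counting error.

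With FPKM as deposited the counts became 1 higher in OX res HCT116, 14 higher and 2 lower in OX res against 5-FU res (HCT116), 1 higher in 5-FU res SW480, 1 higher in OX res SW480, 14 higher in 5-FU res DLD-1, 15 higher in OX res DLD-1 and 12 higher and 7 lower in OX res against 5-FU res (DLD-1). With median-of-ratios scaling they became 0 higher in OX res HCT116, 13 higher and 3 lower in OX res against 5-FU res (HCT116), 1 higher in 5-FU res SW480, 1 higher in OX res SW480, 14 higher in 5-FU res DLD-1, 15 higher in OX res DLD-1 and 12 higher and 7 lower in OX res against 5-FU res (DLD-1), with quantile normalization 3 lower in OX res against 5-FU res (HCT116), 2 higher in 5-FU res SW480 and 2 higher in OX res SW480, and with the trend on transcript length removed 1 higher in OX res HCT116, 13 higher and 5 lower in OX res against 5-FU res (HCT116), 1 higher in 5-FU res SW480, 2 higher in OX res SW480, 4 lower in OX res against 5-FU res (SW480), 16 higher in 5-FU res DLD-1, 19 higher in OX res DLD-1 and 12 higher and 6 lower in OX res against 5-FU res (DLD-1). A mean TPM of 5 or more gave 0 lower in OX res against 5-FU res (HCT116), a fit of only the groups compared 0 lower in OX res against 5-FU res (HCT116), and eBayes without trend 0 lower in OX res against 5-FU res (HCT116), 5 lower in OX res against 5-FU res (SW480) and 3 higher and 1 lower in 5-FU res DLD-1.

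Under the other settings, single libraries left out aside, 29 changes of named genes became called and 44 lost their call with the sign kept. Those are not listed here. Changes of named genes turned as follows. With FPKM as deposited the log2 change was in 5-FU res HCT116 NFE2L1 -0.17, in 5-FU res SW480 PSMB10 -0.24, PSMB8 -0.29, PSMD10 -0.34 and PSMD9 -0.16, in OX res DLD-1 ADRM1 -0.00585 and PSMB5 -0.00267, in OX res HCT116 ADRM1 -0.24, PSMD5 -0.11 and PSMD9 -0.52 and in OX res SW480 PSMA4 -0.15 and PSMD10 -0.15. With median-of-ratios scaling it was in 5-FU res HCT116 NFE2L1 -0.19, in 5-FU res SW480 PSMB10 -0.28, PSMB8 -0.33, PSMD10 -0.37 and PSMD9 -0.20, in OX res DLD-1 ADRM1 -0.00558 and PSMB5 -0.00238, in OX res HCT116 ADRM1 -0.31, PSMD5 -0.18 and PSMD9 -0.60 and in OX res SW480 PSMA4 -0.14 and PSMD10 -0.14. With quantile normalization it was in 5-FU res SW480 PSMB10 -0.036, PSMB8 -0.018 and PSMD9 -0.066, in OX res DLD-1 PSMD5 -0.00657 and in OX res HCT116 PSMD5 -0.020 and PSMD9 -0.40, and with the length trend removed in 5-FU res HCT116 NFE2L1 -0.36, in 5-FU res SW480 PSMB8 -0.026 and PSMD9 -0.12, in OX res HCT116 PSMD5 -0.15 and PSMD9 -0.49 and in OX res SW480 PSMA4 -0.23.

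The core-minus-cap difference became, with quantile normalization, 0.027 in 5-FU res DLD-1, -0.18 in 5-FU res HCT116, 0.00976 in 5-FU res SW480, -0.082 in OX res DLD-1, -0.16 in OX res HCT116 and -0.00953 in OX res SW480. With the length trend removed it was -0.17 in 5-FU res HCT116, 0.052 in 5-FU res SW480, -0.082 in OX res DLD-1, -0.13 in OX res HCT116 and 0.048 in OX res SW480, without a filter on low values 0.044 in 5-FU res DLD-1, -0.23 in 5-FU res HCT116, -0.026 in 5-FU res SW480 and -0.053 in OX res SW480, and with subunits of the mature constitutive particle alone 0.058 in 5-FU res DLD-1, -0.23 in 5-FU res HCT116, 0.035 in 5-FU res SW480, -0.21 in OX res HCT116 and 0.012 in OX res SW480. As a median over the subunits it was 0.068 in 5-FU res DLD-1, -0.41 in 5-FU res HCT116, 0.20 in 5-FU res SW480, -0.14 in OX res DLD-1 and -0.41 in OX res HCT116, and from summed TPM 0.032 in 5-FU res DLD-1, -0.23 in 5-FU res HCT116, -0.033 in 5-FU res SW480, -0.17 in OX res HCT116 and -0.015 in OX res SW480.

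With 1 library left out at a time the counts ranged as follows. In 5-FU res HCT116 they were 0 in each for higher and 34 to 35 for lower. In OX res HCT116 they were 4 in each for higher and 23 in each for lower. In OX res against 5-FU res (HCT116) they were 33 in each for higher and 0 in each for lower. In 5-FU res SW480 they were 3 to 4 for higher and 23 to 28 for lower. In OX res SW480 they were 3 to 4 for higher and 23 to 25 for lower. In OX res against 5-FU res (SW480) they were 17 to 22 for higher and 5 to 8 for lower. In 5-FU res DLD-1 they were 2 to 16 for higher and 1 to 2 for lower. In OX res DLD-1 they were 25 to 31 for higher and 1 in each for lower. In OX res against 5-FU res (DLD-1) they were 18 to 24 for higher and 2 in each for lower. Counts called in either direction were 32 to 33 for 5-FU res change, DLD-1 minus HCT116, 31 to 33 for 5-FU res change, DLD-1 minus SW480, 28 to 29 for 5-FU res change, SW480 minus HCT116, 27 to 28 for DLD-1 WT against HCT116 WT, 30 to 31 for DLD-1 WT against SW480 WT, 28 to 30 for OX res change, DLD-1 minus HCT116, 29 to 32 for OX res change, DLD-1 minus SW480, 21 to 26 for OX res change, SW480 minus HCT116 and 28 to 32 for SW480 WT against HCT116 WT. The core-minus-cap difference was -0.31 to -0.28 in 5-FU res HCT116, -0.32 to -0.28 in OX res HCT116, -0.076 to -0.016 in 5-FU res SW480, -0.093 to -0.033 in OX res SW480, 0.044 to 0.060 in 5-FU res DLD-1 and -0.12 to -0.10 in OX res DLD-1. It was -0.076 (5-FU) and -0.093 (OX) in SW480 without SW480 WT replicate 1, -0.016 and -0.033 without replicate 2, and -0.074 without replicate 3 for OX.

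The replicate block, run although the numbers pair no samples, changed no count by over 1.5 times, with 34 (5-FU) and 23 (OX) lower in HCT116, 27 and 23 lower in SW480 and 30 higher for OX in DLD-1.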
